A study of Mus musculus with 15 samples.

Results

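The enzymes that burn fatty acids in mitochondria and peroxisomes were examined in mouse kidneys with and without the orphan nuclear receptor ERRγ, encoded by Esrrg. A list of 39 gene symbols was looked up in the first column of the 3 tables of genotype comparisons, and all 39 of 39 were found among 23393 genes per table. By the usual place of their proteins, 24 members are mitochondrial, 10 are peroxisomal, 4 are known in both organelles (Crat, Ech1, Eci2 and Acad11), and Pdk4 is a kinase that regulates fuel choice. Members were looked up by name, and the rule has no threshold on a measured value.

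All mice were C57BL/6 and carried floxed Esrrg alleles (ERRg fl/fl). Controls were Cre-negative littermates, and knockout mice also carried the Sim1-Cre transgene (ERRg fl/fl;Sim1-Cre), so a deletion is limited to cells with Sim1-Cre activity and their descendants. Polyadenylated kidney RNA was sequenced from 2 control and 3 knockout males aged 3 weeks, 2 control and 2 knockout females aged 3 weeks, and 3 control and 3 knockout males aged 3 months. The 3 knockout samples of the oldest group are male in their titles and sex fields and female in their source name, and the title was followed.

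In the kidney, fatty acids are a main fuel of the proximal tubule. Mitochondrial oxidation takes in acyl groups through the carnitine shuttle and shortens them in a cycle of dehydrogenation, hydration, a second dehydrogenation and thiolysis, with electrons passed on by the electron transfer flavoprotein. Peroxisomes run a related cycle on very long chain, branched and dicarboxylic acids, in which acyl-CoA oxidases take the place of the dehydrogenases and the shortened products leave as carnitine esters. ERR receptors and PPARα, another nuclear receptor, are both known to act on genes of this pathway.

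The values are the authors' own comparisons, each a log2 fold change with a standard error and an adjusted p over the table. No values per library were used here, so the spread between kidneys is not shown, and the direction rests on a reading. The header does not say which genotype is on top of the ratio. A negative value was read as lower in the knockout libraries, in part since the title of the series links ERRγ with mitochondrial functions, so the fall of the members described here is part of that reading and not independent evidence of it. In the authors' deposited tables Esrrg itself stood at 0.82 ± 0.20 (log2, SE, adjusted p = 0.000613) in males at 3 weeks, 1.04 ± 0.17 (adjusted p = 1.70e-08) in females and -0.87 ± 0.57 without a p at 3 months. On their face the values at 3 weeks go against the reading. Reads from exons outside the deleted part would still be counted, but whether they bear on these values was not tested. No source used here names the floxed exon. With the ratio turned, every direction below would change places, while the comparisons between members would hold in mirror image.

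The totals of mean normalized counts were 47.5, 33.9 and 18.8 times 1e6 in males at 3 weeks, females at 3 weeks and males at 3 months. The steps between the lowest means gave 4, 4 and 5 libraries, against 5, 4 and 6 in the labels, and which labelled libraries entered a table is not known. Of the 39 members, 37, 35 and 30 had a p-value, and the remaining 2, 4 and 9 had the status Outlier, with a fold change and no p. None had the status Low, which goes with low means.

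Stretches of 6 promoters are shown because they hold AGGTCA, the core sequence shared by sites of ERR and PPAR type receptors, and each of the 6 genes passed in at least 1 table. Windows from 250 bases before to 50 after the start of transcription (RefSeq, GRCm38.p6) were matched for 34 of the 39 members, and Acaa2, Acat1, Crat, Decr1 and Hsd17b4 were unmatched. Capitals mark the match, written 5′ to 3′ on the strand of the gene, where TGACCT is AGGTCA read on the opposite strand.
Acadm, chr3:153944857-153944893, minus strand: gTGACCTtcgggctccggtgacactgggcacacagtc
Acadvl, chr11:70015480-70015545, minus strand: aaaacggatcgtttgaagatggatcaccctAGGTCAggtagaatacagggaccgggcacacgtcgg
Acsm1, chr7:119617675-119617740, plus strand: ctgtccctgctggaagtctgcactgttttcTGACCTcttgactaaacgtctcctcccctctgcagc
Cpt1a, chr19:3323177-3323242, plus strand: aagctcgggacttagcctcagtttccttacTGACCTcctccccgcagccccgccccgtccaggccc
Echs1, chr7:140116469-140116534, minus strand: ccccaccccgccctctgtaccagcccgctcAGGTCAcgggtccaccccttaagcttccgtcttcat
Scp2, chr4:108118621-108118686, minus strand: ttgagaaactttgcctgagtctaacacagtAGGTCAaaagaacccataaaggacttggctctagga

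The match began 249, 87, 107, 94, 83 and 109 bases before the RefSeq start of its window, in the order shown. In GENCODE M21 the genes Acsm1, Cpt1a and Scp2 begin further upstream, at 119607026, 3322334 and 108144998. Their windows therefore lie inside the annotated gene and not at its first base. With both strands searched, AGGTCA was in a window of 6 of the 34 matched members (17.6%), the 6 shown, against 18.1% of 27025 genes. The longer AAGGTCA, which contains AGGTCA, was in 1 of 34 (2.94%, Acadm) against 5.38% of all genes. The extended ERR site TNAAGGTCA was in 0 of 34 against 1.43%, and the direct repeat AGGTCANAGGTCA, bound by PPAR with its partner RXR, in 0 of 34 against 0.0481%. This core was thus about as frequent in the members as in all genes. In the authors' deposited tables, tested members with and without it had median log2 fold changes of -0.62 and -0.66 in males at 3 weeks, -0.43 and -0.56 in females, and -1.52 and -1.64 at 3 months. These medians rest on 6, 6 and 4 tested members with the core and 26, 25 and 22 without it. They are descriptions, and a difference between the 2 sets was not tested.

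In males at 3 weeks, fatty acid oxidation genes were lower in the knockout libraries across both organelles. Of the 37 tested members, 28 were lower and 0 higher in the authors' deposited table, beside 8.52% of all tested genes lower and 8.81% higher. The median log2 fold change of the tested members was -0.65, against -0.01 over all tested genes. Among the tested members Acsm2 was the one below -1 (1 member, beside 2.35% of all tested genes). In females of the same age the authors' deposited table gave 21 of 35 lower and 0 higher, beside 10.4% of all tested genes lower and 8.29% higher, with medians of -0.56 and 0.01. There 2 members, Acsm2 and Acaa2, both without a p, were below -1, beside 2.02% of all tested genes. In males at 3 months all 30 tested members were lower in the authors' deposited table, beside 27.8% of all tested genes lower and 29.8% higher, with medians of -1.63 and 0.01. There 36 of the 39 members, tested or not, had log2 fold changes below -1, beside 9.78% of all tested genes. The members are abundant genes, and among tested genes at least as abundant as the lowest member of the table, 996 of 9597, 1184 of 9406 and 1124 of 2068 were lower, with medians of -0.05, -0.03 and -0.40. That lowest mean was 536 and 385 at 3 weeks, both of Acsm3, and 1610 at 3 months, of Acad10. The cuts therefore differ, and these shares and medians are not comparable between the ages.

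**Figure D1:**
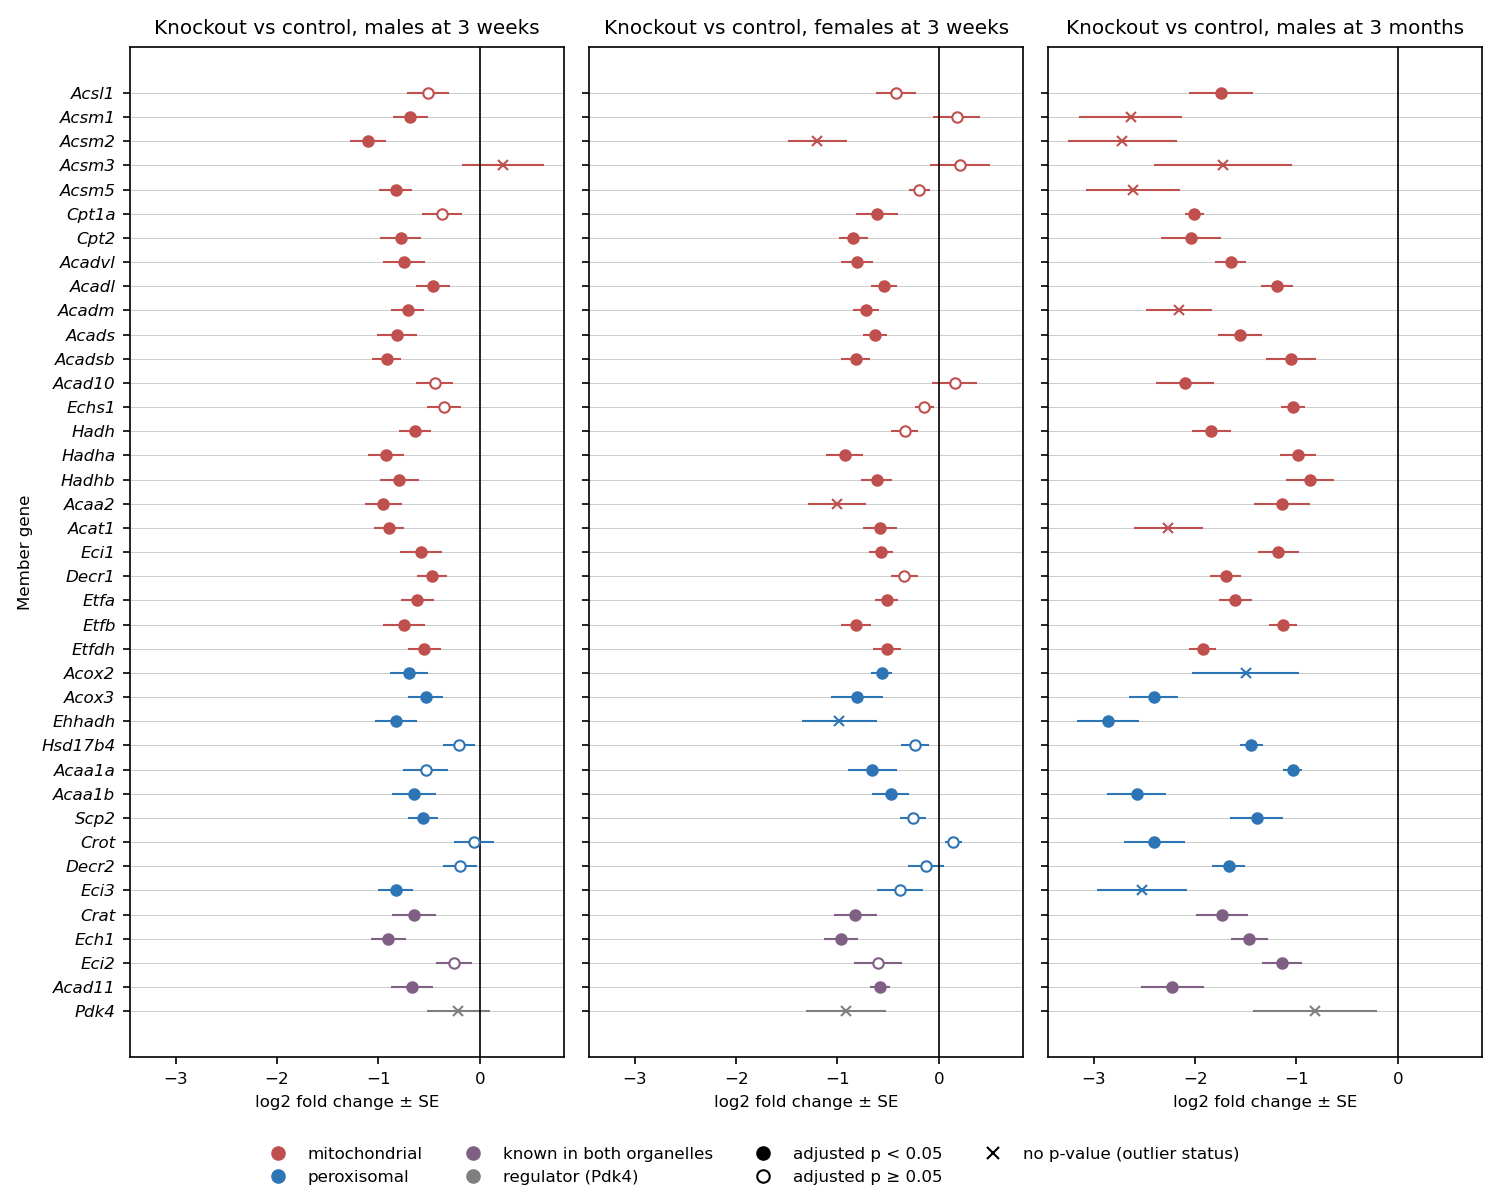
Log2 fold change (knockout over control, as read) with its standard error for each of the 39 members in the 3 comparisons, colored by organelle. Filled circles passed adjusted p under 0.05, open circles did not, and crosses had no p. At 3 months every member lies to the left of 0, and at 3 weeks 38 members do in males and 35 in females.

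Across the 3 comparisons 16 members were lower each time, out of 28 tested each time, beside 3.76% of the 11928 genes tested each time. They comprise 11 mitochondrial members (Cpt2, Acadvl, Acadl, Acads, Acadsb, Hadha, Hadhb, Eci1, Etfa, Etfb and Etfdh), Acox3 and Acaa1b of the peroxisome, and Crat, Ech1 and Acad11 of both. A group of 7 members, Acsl1, Acad10, Echs1, Hsd17b4, Crot, Decr2 and Eci2, passed at 3 months and in neither table at 3 weeks. The difference between the ages in males, described below, passed in all 7. It uses the same fold changes that picked them and is no separate evidence. Of all tested genes, 27.8% were lower at 3 months, 8.52% in young males and 10.4% in young females, and the share with this pattern was not counted. Acsm3 and Pdk4 passed in no table.

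Entry into mitochondria runs through Cpt1a, the outer membrane carnitine palmitoyltransferase and a control point of the pathway, and Cpt2, its inner membrane partner. Cpt2 was at 58.2% of control in males at 3 weeks, 55.8% in females and 24.3% in males at 3 months, from log2 fold changes of -0.78 ± 0.20, -0.84 ± 0.14 and -2.04 ± 0.30 in the authors' deposited tables (SE, adjusted p = 0.00116, 1.66e-07 and 6.91e-11). Cpt1a had -0.37 ± 0.19 (adjusted p = 0.192) in young males and passed in females at -0.61 ± 0.20 (adjusted p = 0.0190) in the authors' deposited tables. At 3 months it stood at -2.01 ± 0.09 (adjusted p = 9.24e-102) in the authors' deposited table, with the smallest adjusted p of any member. The translocase between them, Slc25a20, no member of the list, had -0.42, -0.72 and -1.24 in the authors' deposited tables and passed in the last 2. Cpt1a, Slc25a20 and Cpt2 were thus all lower at 3 months, while in young males Cpt2 alone of them passed. Other isoforms of Cpt1 are not covered by this statement.

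The activating enzymes, which attach coenzyme A, varied among themselves. Acsl1, which activates long chains, was at -0.51 ± 0.21 and -0.42 ± 0.20 at 3 weeks in males and females (adjusted p = 0.0698 and 0.123) and at -1.74 ± 0.32 (adjusted p = 2.02e-07) at 3 months in the authors' deposited tables. The medium-chain ligases Acsm1, Acsm2, Acsm3 and Acsm5 lie in a cluster on chromosome 7, between 119519463 and 119787513 (GRCm38). Acsm2 was the lowest member in young males, at -1.10 ± 0.18 (adjusted p = 3.77e-08) in the authors' deposited table, or 46.6% of control. Acsm1 and Acsm5 passed in young males, at -0.68 ± 0.17 and -0.83 ± 0.16, and had 0.18 ± 0.23 and -0.19 ± 0.10 (adjusted p = 0.665 and 0.192) in females in the authors' deposited tables. Acsm3 had 0.23 and 0.21 at 3 weeks in males and females and passed in neither of the authors' deposited tables. In the authors' deposited table at 3 months Acsm1, Acsm2, Acsm3 and Acsm5 had -2.64, -2.72, -1.73 and -2.62, each with the status Outlier and standard errors of 0.51, 0.54, 0.68 and 0.46. The cluster therefore differed member by member at 3 weeks, and its values at 3 months are large but untested.

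Among the acyl-CoA dehydrogenases, which catalyse the first step of the mitochondrial cycle for chains of different length, 5 of 6 were lower in each table at 3 weeks. Acadvl, for very long chains, had -0.75, -0.81 and -1.65 in males at 3 weeks, females and males at 3 months, and Acads, for short chains, -0.82, -0.63 and -1.56 in the authors' deposited tables. Acadl, for long chains, was the least reduced of those that passed in young males, at -0.46 ± 0.16 (adjusted p = 0.0331) in the authors' deposited table. Acadm, for medium chains, was at 61.0% and 60.7% of control in young males and females and had -2.16 ± 0.32 without a p at 3 months in the authors' deposited tables. Acadsb, which acts on short branched chains, hardly varied, with -0.92 ± 0.14, -0.82 ± 0.15 and -1.05 ± 0.25 in the authors' deposited tables. Acad10 passed only at 3 months, with -2.10 ± 0.29 after -0.45 ± 0.18 and 0.16 ± 0.22 at 3 weeks in the authors' deposited tables.

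The later steps of the mitochondrial cycle are run by the trifunctional protein, made of Hadha and Hadhb, and by Echs1, Hadh, Acaa2 and Acat1 for shorter chains and the final thiolysis. Hadha was at 52.7%, 52.6% and 50.5% of control in males at 3 weeks, females and males at 3 months, from -0.92 ± 0.18, -0.93 ± 0.18 and -0.99 ± 0.18 in the authors' deposited tables (adjusted p = 7.69e-06, 1.06e-05 and 1.69e-07). Its partner Hadhb, whose gene lies next to it on chromosome 5, had -0.79, -0.61 and -0.87 in the authors' deposited tables. These were the 2 least negative tested values at 3 months, and the pair differed little between the ages. Hadh had -0.64, -0.34 and -1.84, and Acat1, a thiolase also used in ketone body metabolism, had -0.90, -0.58 and -2.27, the last without a p, in the authors' deposited tables. Echs1 passed only at 3 months, at -1.03 ± 0.12 (adjusted p = 4.73e-17) in the authors' deposited table.

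Electrons from the dehydrogenases go to the flavoprotein subunits Etfa and Etfb and on to the respiratory chain through Etfdh. All 3 were lower in each comparison, with -0.61, -0.75 and -0.55 in young males, -0.51, -0.82 and -0.51 in females, and -1.60, -1.13 and -1.93 at 3 months for Etfa, Etfb and Etfdh in the authors' deposited tables. The isomerase Eci1 and the reductase Decr1, which handle double bonds, had -0.58 and -0.47, then -0.57 and -0.34, then -1.18 and -1.70 in the same order in the authors' deposited tables, and only Decr1 in females missed the threshold (adjusted p = 0.0547).

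The peroxisomal members ranged at 3 weeks from values near 0 to falls like those of the mitochondrial cycle. Ehhadh, the bifunctional enzyme of the peroxisomal cycle, was at 56.4% of control in young males and at 13.8% at 3 months, from -0.83 ± 0.21 (adjusted p = 0.000810) and -2.86 ± 0.31 (adjusted p = 3.02e-19) in the authors' deposited tables, and no member was lower at 3 months. In females its value of -0.98 ± 0.37 had no p in the authors' deposited table. The other bifunctional enzyme, Hsd17b4, had -0.20 ± 0.16 and -0.23 ± 0.14 at 3 weeks (adjusted p = 0.458 and 0.244) and -1.45 ± 0.11 (adjusted p = 1.78e-35) at 3 months in the authors' deposited tables. Of the oxidases, Acox3 had -0.53, -0.81 and -2.41, all passing, and Acox2, which acts on branched chains and bile acid precursors, -0.70, -0.56 and an untested -1.50 in the authors' deposited tables.

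Among the peroxisomal thiolases, Acaa1b had -0.65, -0.48 and -2.58 and its close paralog Acaa1a -0.53, -0.65 and -1.04 in the authors' deposited tables, of which only the value of Acaa1a in young males missed the threshold (adjusted p = 0.0782). Scp2, a thiolase and sterol carrier, had -0.56, -0.25 (adjusted p = 0.167) and -1.39 in the authors' deposited tables. Crot, which makes carnitine esters for export, was level with control in young kidneys, with -0.06 ± 0.20 (adjusted p = 0.904) in males and 0.14 ± 0.09 (adjusted p = 0.251) in females, and fell to 18.9% of control at 3 months, with -2.40 ± 0.30 (adjusted p = 1.71e-14), in the authors' deposited tables. Decr2, the peroxisomal reductase, showed the same order of values, with -0.19, -0.12 and -1.67, and passed at 3 months only in the authors' deposited tables. Eci3 was at -0.83 ± 0.17 in young males, -0.38 ± 0.23 (adjusted p = 0.264) in females and an untested -2.53 at 3 months in the authors' deposited tables.

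Of the 4 enzymes of both organelles, Ech1 was the lowest in young kidneys, with -0.90, -0.96 and -1.46, and Crat, carnitine acetyltransferase, had -0.65, -0.82 and -1.74 in the authors' deposited tables. Acad11 had -0.67, -0.58 and -2.23, and Eci2 passed only at 3 months (-1.14) in the authors' deposited tables. Pdk4, which restrains the use of pyruvate when fat is burned, had -0.21 ± 0.31, -0.92 ± 0.40 and -0.81 ± 0.61, all with the status Outlier, in the authors' deposited tables.

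Set side by side, mitochondrial members had the lower median at 3 weeks and peroxisomal members at 3 months. In young males the authors' deposited table gave 19 of 23 mitochondrial and 6 of 10 peroxisomal members lower, with medians of -0.71 and -0.55. Beside them, 8.52% of all tested genes were lower in young males, 10.4% in females and 27.8% at 3 months. In females 14 of 22 mitochondrial and 4 of 9 peroxisomal members were lower, with medians of -0.56 and -0.38 in the authors' deposited table. Only 2 peroxisomal members passed there when fold changes were scaled to total counts. At 3 months all 18 and all 8 tested members were lower, with medians of -1.58 and -2.04 in the authors' deposited table. Among tested genes at least as abundant as the lowest member, 54.4% were lower at that age. The peroxisomal median minus the mitochondrial one was 0.17, 0.17 and -0.46, and 0.15, 0.15 and -0.32 with the untested members counted. It was -0.78 at 3 months without the members that share much sequence with other genes. These differences are descriptions with no test: the first 2 are about the size of a member's typical standard error, 0.18 and 0.15, and the organelles overlapped in every comparison. Peroxisomal members at 3 months reached from Acaa1a at -1.04 to Ehhadh at -2.86, and tested mitochondrial members from Hadhb at -0.87 to Acad10 at -2.10 in the authors' deposited table.

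The sexes were compared at 3 weeks by the difference of the log2 fold changes, females minus males. A difference passed at 0 of 34 members and 0% of 13737 genes tested in both tables (Wald test, Benjamini-Hochberg adjustment, two-sided), with 237 genes and 3 members at an unadjusted p under 0.05. The 3 were Acsm1 at 0.86 (SE 0.29, unadjusted p = 0.00298), Acsm5 at 0.63 (SE 0.19, unadjusted p = 0.000932) and Acad10 at 0.60 (SE 0.28, unadjusted p = 0.0340), each with an adjusted p of 1.00. All 3 had negative log2 fold changes in young males, Acad10 without passing there, and values between -0.19 and 0.18 in females. The median difference over the members was 0.09, and 18 of 39 members were more negative in females. Of the 34 members tested in both, 19 were lower in both, beside 5.9% of all genes tested in both.

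**Figure D2:**
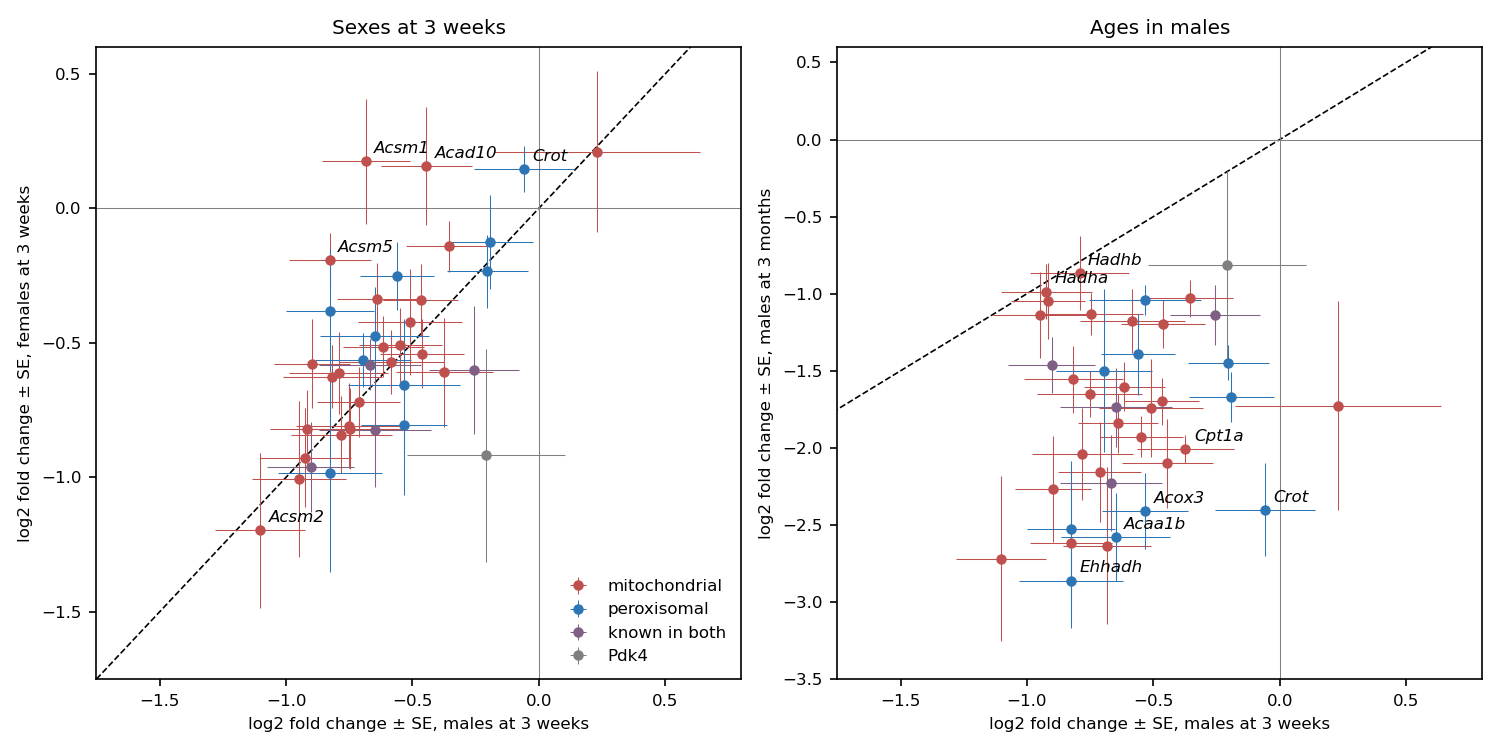
Log2 fold change of each member, with standard errors, in males at 3 weeks on the x axis against females at 3 weeks on the left and males at 3 months on the right. The dashed line marks equal values. Members scatter on both sides of the line on the left and all lie below it on the right, with Crot farthest and Hadha and Hadhb nearest.

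The log2 fold change in males was more negative at 3 months than at 3 weeks in every member, in 24 of 24 mitochondrial and 10 of 10 peroxisomal genes. The share of all genes with this sign was not counted. Tested genes at least as abundant as the lowest member had medians of -0.05 in young males and -0.40 at 3 months, under different cuts. The difference, 3 months minus 3 weeks, passed in 22 of 30 tested members (Wald test, Benjamini-Hochberg adjustment), all lower, beside 10.9% of 12355 genes lower and 16.8% higher. Its median was -1.04 over the members and 0.04 over all genes. By organelle it passed in 12 of 18 mitochondrial members, with a median of -0.82, and in 7 of 8 peroxisomal ones, with a median of -1.68. These medians leave out the members with the status Outlier. Without the filter on low means and outliers it passed in 17 of 24 and 8 of 10, beside 9.56% of all genes lower. The medians were then nearer to each other, at -1.22 and -1.59. Crot led with -2.34 (SE 0.36, adjusted p = 4.47e-09), followed by Ehhadh at -2.03 (SE 0.37, adjusted p = 1.09e-06), Acaa1b at -1.93 and Acox3 at -1.88. Among the tested mitochondrial members Acad10 and Cpt1a led, at -1.66 and -1.63. Hadha, Hadhb, Acadsb and Acaa2 were at -0.06, -0.08, -0.13 and -0.19, with adjusted p from 0.717 to 0.888.

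The table at 3 months was wider altogether, and this bears on the comparison of ages. Moderation of the fold changes, described below, may also differ between the tables, and the Wald test does not allow for it. The median absolute deviation of log2 fold changes over tested genes was 0.249 in young males and 0.550 at 3 months, and 57.5% of all tested genes passed in the older table against 17.3% in the younger. With the older table scaled to the spread of the younger one, 1 of 30 members passed, Crot at -0.96 (adjusted p = 0.00298), and Acadvl and Acads changed sign. The median age difference was then -0.05 in mitochondrial members, with 0 of 18 passing, and -0.43 in peroxisomal ones, with 1 of 8. A total per genotype, rebuilt from means and fold changes, was lower in the knockout at every age, so scaling to total counts moves every log2 fold change up by 0.18, 0.15 and 0.49. The split of all genes into lower and higher then goes from 1249 and 1291 to 701 and 2129 in young males, from 1478 and 1173 to 859 and 2446 in females, and from 3563 and 3819 to 1355 and 7107 at 3 months. Of the members lower at 3 months, all but Hadhb (-0.37, adjusted p = 0.160) still passed under that scaling, and Crot in females became higher (0.29, adjusted p = 0.00498).

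Levels of different members were ranked within each table, as mean normalized counts per kb of the longest coding transcript in GENCODE M21, over both genotypes. In young males Ech1 was highest at 30148, then Etfb at 25299, Acaa2 at 23948 and Ehhadh at 18931, and Acsm3 lowest at 163. At 3 months Ehhadh led at 12873, followed by Acsm2 at 12001 and Ech1 at 10567. The median per kb was 6585 for mitochondrial and 3259 for peroxisomal members in young males, and 2746 and 2455 at 3 months. Across tables, which were normalized separately, values are given side by side without a test. Acsm3 had 11.3 counts per 1e6 of the table's total in young males and 11.4 in females and 612 at 3 months. The members held 1.39%, 1.35% and 2.01% of the totals.

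**Figure D3:**
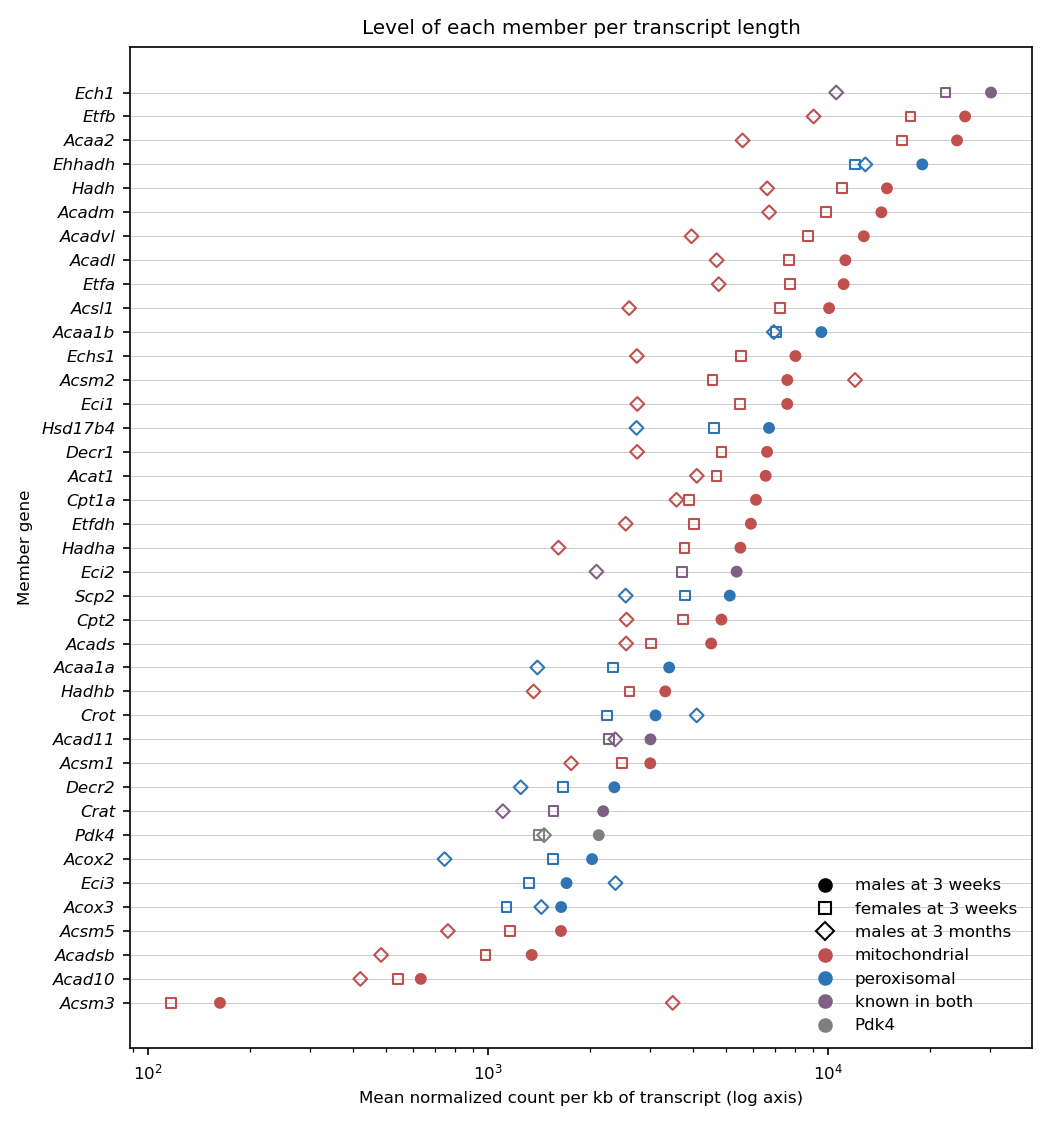
Mean normalized count per kb of transcript (log axis) for each member, sorted by the value in males at 3 weeks, with 1 marker for each comparison and colors for the organelle. Each value is the mean over both genotypes, and tables were normalized separately, so only the order within a marker type can be compared. Acsm3 is lowest at 3 weeks and mid-range at 3 months.

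Some members share sequence with other genes, so their counts may hold reads of both. The search covered both strands, and matches on the opposite strand were not counted apart. Of the 50-base windows of the longest coding transcript, 67.3% for Etfb, 62.4% for Hadhb and 41.4% for Scp2 were also in other annotated transcripts, mostly of Gm45233, Gm13910 and Scp2-ps2. Acaa1a and Acaa1b shared 34.0% and 35.5% of their windows with each other, and 35.2% of Acsm3 lay in Eri2. In 28 of 39 members the share was under 5%. Smaller shares were found for Acadvl (24.0%, in Dvl2), Acad10 (20.4%, in Acad12), Eci3 (15.2%), Acad11 (14.8%) and Eci2 (11.3%). The values of these 11 members are therefore uncertain by an amount not known here.

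The rest of the pathway was taken from lists of related genes. Beside the counts below, 8.52%, 10.4% and 27.8% of all tested genes were lower in young males, females and males at 3 months. In the same order 8.81%, 8.29% and 29.8% were higher. Among other mitochondrial genes of acyl-CoA and ketone body metabolism, 19 of 27 tested were lower and 2 higher in young males, 15 of 22 and 1 in females, and 12 of 19 and 3 at 3 months in the authors' deposited tables, with medians of -0.62, -0.47 and -0.98. Oxct1, which lets tissues use ketone bodies, had -1.46 and -1.13 at 3 weeks, and Bdh1, a ketone body dehydrogenase, -1.41 and -1.50, below every tested member, in the authors' deposited tables. Other peroxisomal genes numbered 14 of 42 lower, 15 of 39 and 30 of 32 in the same order, with medians of -0.33, -0.29 and -0.93 in the authors' deposited tables. Only Abcd2, a transporter of the peroxisomal membrane, was higher among them, at 4.12 ± 0.44 (adjusted p = 8.34e-20) at 3 months in the authors' deposited table. Among genes of fatty acid uptake and lipid droplets 3 of 8, 2 of 8 and 5 of 12 were lower in the authors' deposited tables, led in young males by Fabp3, a fatty acid binding protein, at -2.43 ± 0.25. The share at 3 months, 41.7%, lies between the 27.8% of all tested genes and the 54.4% of those at least as abundant as the lowest member. Fabp4, the binding protein of fat cells, was higher at 3 months, at 3.39 ± 0.30 in the authors' deposited table.

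A list of 23 regulators held nuclear receptors and cofactors together with enzymes that set fuel choice, such as pyruvate dehydrogenase kinases, sirtuins and malonyl-CoA enzymes. Of these, 7 of 19 tested were lower in young males, 8 of 20 in females and 11 of 15 at 3 months, with 1 higher in each of the authors' deposited tables, which was Esrrg itself at 3 weeks and Prkaa1, an AMP-activated kinase subunit, at 3 months. Beside these counts, 8.52%, 10.4% and 27.8% of all tested genes were lower and 8.81%, 8.29% and 29.8% higher in the same order. The regulators lower in young males were the receptors Esrra and Esrrb, the cofactor Ppargc1b, and the enzymes Sirt3, Pdk1, Pdk2 and Pdp2. Esrra, the sister receptor ERRα, had -0.88, -0.76 and -1.12 and passed each time in the authors' deposited tables. Ppara, encoding PPARα, had -0.20 ± 0.23 (adjusted p = 0.655) in young males, 0.19 without a p in females and -3.01 ± 0.22 (adjusted p = 1.93e-40) at 3 months in the authors' deposited tables. Ppargc1a, the cofactor PGC-1α, had -0.04, 0.20 and an untested -1.32 in the authors' deposited tables. The value of Ppara was thus near 0 in young males and far below 0 in older ones, and a link between it and the members was not tested.

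Markers of several kidney cell types differed between the genotypes, some in the direction of the members and some not. The RNA came from kidney in bulk, so fewer cells of a type and less RNA per cell cannot be told apart. Beside the marker counts, 8.52%, 10.4% and 27.8% of all tested genes were lower in young males, females and males at 3 months. In the same order 8.81%, 8.29% and 29.8% were higher. Of 10 proximal tubule markers, 7 of 10 tested were lower in young males, 2 of 7 in females and 3 of 3 at 3 months, with medians over all 10 of -0.81, -0.23 and -2.63 in the authors' deposited tables. The members' medians over all 39 were -0.65, -0.58 and -1.70, so they lay above those of these markers in both tables of males and below them in females. For the thick ascending limb, another tubule segment rich in mitochondria, 4 of 5, 4 of 5 and 1 of 1 tested markers were lower in the authors' deposited tables. Distal convoluted tubule markers were lower in 3 of 4, 3 of 3 and 3 of 3, and podocyte markers in 3 of 4, 1 of 4 and 3 of 3 in the authors' deposited tables. Principal cell markers of the collecting duct went the other way, with 0 lower, 2 of 4, 0 of 1 and 2 of 3 tested higher and medians over all 5 of 0.90, 0.46 and 0.77 in the authors' deposited tables. Endothelial markers had medians over all 4 of -0.52, -0.79 and 0.49 in the authors' deposited tables. Injury markers were higher in 4 of 4, 5 of 5 and 5 of 5, and immune cell markers in 4 of 6, 4 of 6 and 5 of 5, with median log2 fold changes of the tested injury markers of 1.83, 2.45 and 4.05, in the authors' deposited tables. Fat cell markers had a median over all 8 of 0.05, -0.08 and 4.68 in the authors' deposited tables, and at 3 months Plin1 and Retn were higher at 4.67 and 6.80 while Adipoq had 4.68 without a p. The part of these cell types in the members' values was not tested.

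**Figure D4:**
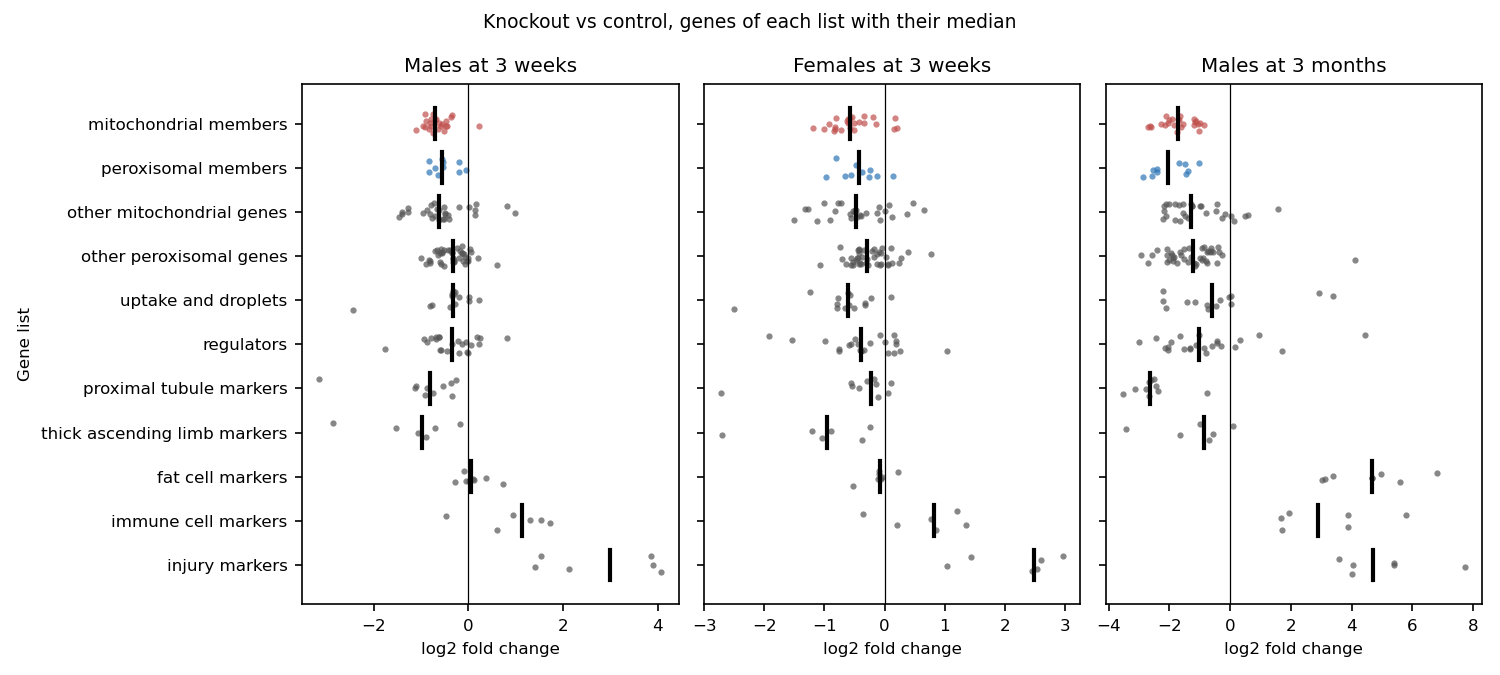
Log2 fold changes of the genes of each list (points, tested or not) and their median (bar) in the 3 comparisons, with a separate x scale in each panel. Members and their related lists lie mostly below 0, injury and immune markers mostly above 0, and fat cell markers near 0 at 3 weeks and above 0 at 3 months.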

How the data were processed

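Polyadenylated RNA of 15 kidneys in 6 groups was made into TruSeq Stranded mRNA libraries, per the labels. The submitters' processing notes name mm10, STAR, HOMER and DESeq2, with versions not given in the sources used here. Each deposited table holds, per the file headers, the mean normalized count (a signal never below 0), the log2 fold change and its standard error (entered as a score), and the p-value before and after adjustment. All deposited p-values were within 1% of a two-sided Wald p of fold change over standard error. The largest standard errors were 0.44, 0.42 and 1.10. Genes at the lowest step of the means, read as a single count in 1 library, had median log2 fold changes of 0.04, 0.04 and 0.29. Values this small go with fold changes moderated toward 0, more strongly at 3 weeks, and the degree of moderation was not tested. The labels call the samples littermates, and p-values measure only the spread between the libraries of a table.

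Adjusted p under 0.05 counted as a call, and 27 symbols turned into dates were dropped from 23420 rows. Percentages of control were computed from the log2 fold change. Differences between tables were tested by a Wald test on independent fold changes with Benjamini-Hochberg adjustment over all genes tested in both, checked on simulated data. The simulated noise followed the deposited standard errors, with no difference in spread or moderation between tables. The check therefore cannot show how the test behaves under such differences. The planned edgeR test was not used, since the values are not counts. Members and lists were chosen with earlier results of these data known. All 39 members are accounted for, and at most a few genes per other list are named, among them Ppara, Ppargc1a, Fabp4, Bdh1 and the markers, which were chosen after their values were seen. Motifs and sequence windows were searched with Python 3.11.15, pandas 2.3.3, NumPy 2.4.6 and SciPy 1.17.1. Another gene of these lists is not reported here by name.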

Additional observations from a re-analysis of the deposited data

Results flagged for a closer look

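The genotype effect in males differed between 3 months and 3 weeks by the Wald test of the difference (Benjamini-Hochberg adjusted p under 0.05) in 22 members, all more negative at 3 months. Among peroxisomal members the differences in log2 fold change were -2.34 for Crot, -2.03 for Ehhadh, -1.93 for Acaa1b, -1.88 for Acox3, -1.48 for Decr2, -1.24 for Hsd17b4 and -0.83 for Scp2. Among mitochondrial members they were -1.66 for Acad10, -1.63 for Cpt1a, -1.38 for Etfdh, -1.26 for Cpt2, -1.24 for Acsl1, -1.23 for Decr1, -1.20 for Hadh, -0.99 for Etfa, -0.90 for Acadvl, -0.74 for Acads, -0.73 for Acadl and -0.68 for Echs1. Enzymes of both organelles had -1.56 for Acad11, -1.09 for Crat and -0.88 for Eci2. Beside these, 10.9% of all genes were lower and 16.8% higher by the same test. The wider spread of the older table moves with these values: scaled to the younger table's spread, only Crot passed.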

How the results depend on the processing

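Counts of members lower ranged from 20 to 31 in young males, 17 to 24 in females and 29 to 38 at 3 months over the alternatives. The share of all tested genes lower ranged from 4.78% to 11.0%, 6.07% to 12.9% and 10.6% to 30.8% in the same order. No member was higher except Crot in females under total-count scaling, chosen after seeing the data (1 member, at 0.29). The peroxisomal count in females went from 4 to 1 at adjusted p under 0.01, and to 2 without the filter on low means and outliers, centred on the most abundant genes, or scaled to total counts. At 3 months the medians of mitochondrial and peroxisomal members went from -1.58 and -2.04 to -1.08 and -1.54 under total-count scaling. Without the members of shared windows the peroxisomal median was -2.40 and its distance from the mitochondrial one -0.78. Members differing between the ages went from 22 of 30 to 1 of 30 with the spread of the tables equalised, beside 1.18% of all genes lower. Acadvl and Acads had 0.052 and 0.16 in that setting. Under the other settings the count went from 15 of 30, scaled to total counts, to 28 of 39, without the filter on low means and outliers. Beside these last 2 counts, 4.44% and 9.56% of all genes were lower. Centring on the most abundant genes at 3 months split all genes into 1818 lower and 5971 higher. Beyond the scaling's own shift, the cause of these changes was not tested. Leaving out a library was not run, as values per library were not used here. No paired analysis was possible because the replicate numbers never repeat between groups.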
